A study of Homo sapiens with 8 samples.

Results

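The genes described here are PHOSPHO1 and 9 other genes of bone mineralization (ALPL, ENPP1, ANKH, SLC20A1, SLC20A2, RUNX2, SP7, SPP1 and SPARC), 10 of the 34792 genes measured. They are enzymes, transporters, factors and matrix proteins of mineral formation, and were chosen by their role and by the read counts per gene in doxycycline against control cultures of the same origin. For that reason their values in that comparison are given as a description, with no p-value, and the number of them called is printed in 1 place, beside the share or number of all genes called, with nothing read from it. Of the 10, 8 passed the filter on low counts, and SP7 and SPP1 did not.

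RNA was sequenced from A673/TR/shFEZF1 cells, an Ewing sarcoma line that carries the EWSR1-FLI1 fusion and in which doxycycline turns on an shRNA directed at FEZF1. There were 4 control cultures without doxycycline and 4 cultures that received 1 µg/mL doxycycline during 72 h. Each group held 1 culture of the polyclonal population (bulk) and 1 each of clones 3, 5 and 6, so that every doxycycline culture had a control of the same origin. The shRNA cassette was present in all 8 cultures, and a clone is the progeny of a single cell. Cultures given doxycycline without an shRNA were not analysed here, so an effect of the drug and an effect of the shRNA cannot be told apart. Between 26719886 and 42422421 reads per library were assigned to transcripts. Nothing in the labels says whether cultures of the same kind were grown on separate occasions, and the p-values below measure only the spread between these cultures.

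Bone mineral starts inside matrix vesicles, small membrane sacs shed by osteoblasts and chondrocytes, where PHOSPHO1 releases phosphate from phosphocholine and phosphoethanolamine. Outside the vesicle, ALPL splits pyrophosphate, an inhibitor of crystal growth, which ENPP1 makes from ATP and ANKH helps to export, while SLC20A1 and SLC20A2 carry phosphate across membranes. RUNX2 and SP7 are the transcription factors of the osteoblast programme, and SPP1 and SPARC are proteins of the mineralizing matrix.

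PHOSPHO1 lies on chromosome 17 of GRCh38, on the minus strand (chr17:49223366-49230787). The files hold 2 RefSeq transcripts of the gene, both of which were read in every library. Their coding parts share 756 bases and differ in the bases before them. NM_178500.4 (2071 bases, 267 residues) has its start codon in exon 2, where it has 45 coding bases of its own, which precede the start codon in the other transcript and are not printed. In NM_001143804.1 (2173 bases, 292 residues) exon 3 begins 127 bases earlier and holds the start codon. The 120 coding bases that belong to NM_001143804.1 alone, from that start codon to the point where both transcripts become the same, are printed to show how the isoforms differ (minus strand, chr17:49225005-49225124, start codon in capitals, as read from GENCODE release 44).
PHOSPHO1 exon 3, NM_001143804.1: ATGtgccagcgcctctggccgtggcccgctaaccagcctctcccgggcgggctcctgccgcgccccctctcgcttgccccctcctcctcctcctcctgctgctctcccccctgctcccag

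The promoter of PHOSPHO1 is shown as well, since GGAA is the core motif of the ETS factor in EWSR1-FLI1. It covers 250 bases before and 50 bases after the start of the gene (chr17:49230738-49231037, minus strand, RefSeq table, GRCh38.p14), with GGAA and its reverse complement TTCC in capitals.
PHOSPHO1 promoter: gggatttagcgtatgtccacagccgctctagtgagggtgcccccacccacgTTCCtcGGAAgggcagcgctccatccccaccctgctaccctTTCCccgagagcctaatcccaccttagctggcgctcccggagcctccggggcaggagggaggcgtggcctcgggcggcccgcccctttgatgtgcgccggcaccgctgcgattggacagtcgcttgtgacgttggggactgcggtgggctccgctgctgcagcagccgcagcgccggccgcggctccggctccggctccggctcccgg
The motif was matched 3 times, counting both strands. Of 35116 promoters of the same length in the table, 95.5% held at least 1 match and 66% held at least 3. A promoter like this was therefore common, and a match is a description and not a binding site. From published binding data, the paper reports a peak of EWSR1-FLI1 at GGAA repeats downstream of the PHOSPHO1 start. The promoter shown ends 50 bases after the start, so its matches say nothing about that peak, and binding was not tested here. Of the 10 genes, 8 have a promoter in the table.

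FEZF1, a zinc finger transcription factor and the target of the shRNA, was measured first as a check of the labels. It was at 96.4, 70.5, 107.1 and 74.4 CPM (read counts scaled to the library size by TMM) in the control cultures of the polyclonal population and clones 3, 5 and 6, and at 60.6, 43, 60.8 and 36.4 CPM in the doxycycline cultures in the same order. Every doxycycline culture was below every control culture. The log2 fold change was -0.81 (SE 0.0726, exact permutation test of log2 CPM, 2-sided, p = 0.0286, the lowest value possible with 4 cultures per group). That permutation exchanged labels freely among all cultures and took no account of their pairing by origin. In the model with the origin of the cultures as a replicate block it passed the threshold of 0.05 (edgeR's quasi-likelihood fit, adjusted p = 0.00594 by the Benjamini-Hochberg method over all genes tested), and with no block it did not (edgeR, adjusted p = 0.29).

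PHOSPHO1 was at 50.3, 67.1, 46.8 and 50.1 CPM in the control cultures (polyclonal, clones 3, 5 and 6) and at 80.2, 83.9, 97.7 and 87.4 CPM in the doxycycline cultures. The doxycycline cultures all lay above the control cultures, and the control culture of clone 3 was the highest of its group. The ratio of doxycycline to control was 1.59 in the polyclonal pair, 1.25 in clone 3, 2.09 in clone 5 and 1.74 in clone 6, so clone 5, with the lowest control value, had the highest value with doxycycline. On average PHOSPHO1 was at 53.6 ± 9.18 CPM without and at 87.3 ± 7.55 CPM with the drug (SD, n = 4 each), with a log2 fold change of 0.71 (SE 0.11), a 1.64-fold difference. In libraries of whole cultures, more cells with the transcript and more transcript per cell cannot be told apart. These values rest on 1246 to 2944 reads of the gene per library.

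Across all genes tested, 7.63% were called between doxycycline and control in edgeR's fit with the origin block, 3.73% as higher and 3.91% as lower. Without the block, edgeR called 0.00625% of all genes and DESeq2 1.45%. Of the 8 members tested, 1 (PHOSPHO1) was called with the block, none by edgeR without it and 1 by DESeq2 without it. DESeq2 with the block called 2, PHOSPHO1 and SLC20A2, beside 12% of all genes. In edgeR's fit with the block no member was called without clone 5, where 175 genes were called in all, or without clone 6, where 230 were. Since the members were chosen with this contrast known, nothing is read from these counts. The control and doxycycline cultures did not overlap in 1 of the 10 members, again PHOSPHO1, beside 4.94% of all genes tested.

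**Figure D1:**
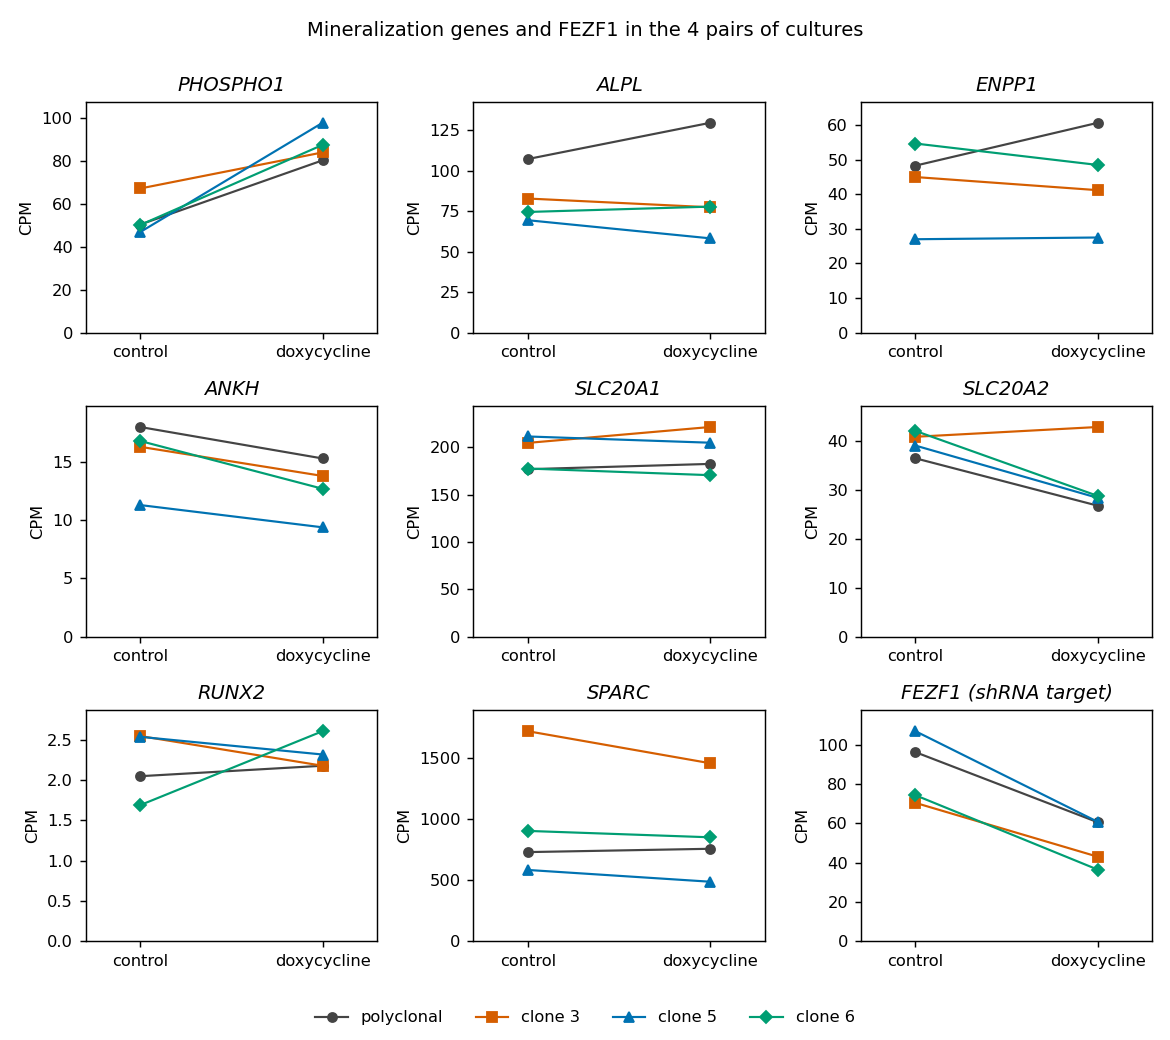
CPM (vertical axes, from 0) of the 8 members that passed the filter and of FEZF1 in the control and doxycycline culture of each origin, with a line joining the pair of cultures. PHOSPHO1 was higher with doxycycline in 4 of 4 pairs, FEZF1 and ANKH were lower in 4 of 4, and SPARC was highest in clone 3 with or without doxycycline.

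The share of the PHOSPHO1 transcripts was also followed by library. NM_178500.4 took 76.4% of the reads of the gene over the 8 libraries and NM_001143804.1 took 23.6%. In the control cultures NM_001143804.1 held 28.3% of the reads in the polyclonal population, 19.5% in clone 3, 20.7% in clone 5 and 16.7% in clone 6. With doxycycline the shares were 30.8%, 23.8%, 23.6% and 20%. The share was thus higher with doxycycline in each pair and was highest in the polyclonal cultures, while the ranges of the groups overlapped. Relative to all assigned reads, both transcripts were higher with doxycycline, NM_178500.4 at 37.9 ± 6.46 and 59.7 ± 6.88 CPM and NM_001143804.1 at 10.2 ± 2.62 and 19.3 ± 3.2 CPM of assigned reads (SD, n = 4 each). Salmon divides reads that fit both transcripts by a model, so the shares depend on it.

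**Figure D2:**
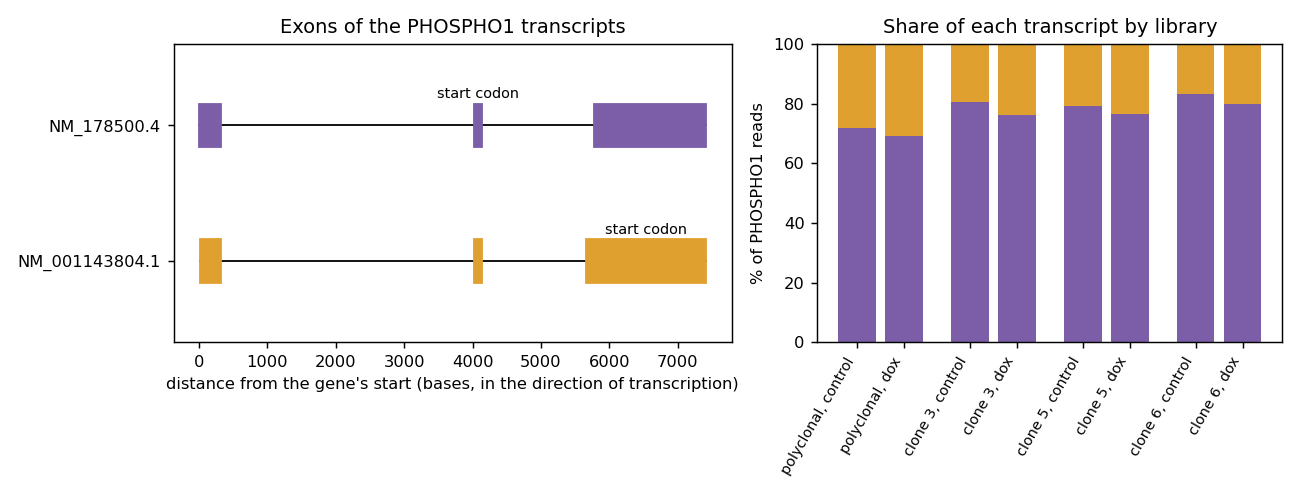
Left, exons (boxes) of the PHOSPHO1 transcripts by distance in bases from the start of the gene, with the exon that holds each start codon. Right, percent of PHOSPHO1 reads by library for NM_178500.4 (purple) and NM_001143804.1 (yellow). NM_178500.4 took the larger share in all 8 libraries, from 69.2% to 83.3%.

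ALPL, the tissue-nonspecific alkaline phosphatase (chr1:21508984-21578410), was at 107.2, 82.8, 69.4 and 74.5 CPM in the control cultures and at 129.6, 77.4, 58.2 and 77.8 CPM with doxycycline. The polyclonal cultures were the highest of each group and clone 5 the lowest. The log2 fold change with doxycycline was -0.00 (SE 0.0867), with 2 pairs higher and 2 lower. Of its 7 transcripts, NM_000478.6 held 90.1% of the reads.

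ENPP1, which produces pyrophosphate from ATP (chr6:131808020-131895155), was at 48.3, 45, 27 and 54.7 CPM in the control cultures and at 60.7, 41.2, 27.5 and 48.5 CPM with doxycycline. Clone 5 was the lowest in each group. The log2 fold change was 0.02 (SE 0.0917), and 2 of 4 pairs were higher.

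ANKH, a membrane protein of pyrophosphate and ATP export (chr5:14704800-14871778), was at 18, 16.3, 11.3 and 16.8 CPM in the control cultures and at 15.3, 13.8, 9.39 and 12.7 CPM with doxycycline. The values of the groups overlapped, because clone 5 was low with and without doxycycline, but each pair was lower with doxycycline, by a ratio of 0.756 to 0.851. The log2 fold change was -0.28 (SE 0.0865). A predicted transcript, XM_017009644.2, took 59.9% of the ANKH reads.

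The phosphate transporter SLC20A1 (PiT-1, chr2:112645939-112663825) was at 177, 204.8, 211.6 and 177.7 CPM in the control cultures and at 182.6, 221.6, 205 and 170.7 CPM with doxycycline, a log2 fold change of 0.01 (SE 0.0528). Clones 3 and 5 were above the other cultures in both groups. Its relative SLC20A2 (PiT-2, on chromosome 8) was at 36.5, 40.9, 39.1 and 42.1 CPM in the control cultures and at 26.8, 42.9, 28.4 and 28.8 CPM with doxycycline. Lower values with doxycycline were seen in the polyclonal population and clones 5 and 6, and clone 3 was level (ratio 1.05), so the groups overlapped. The log2 fold change of SLC20A2 was -0.34 (SE 0.107), and only 79% of the reads that the authors' mean implies for this gene could be matched to its symbol.

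RUNX2, which starts the osteoblast programme (chr6:45328330-45551082), was low, at 2.05, 2.55, 2.54 and 1.69 CPM in the control cultures and at 2.18, 2.18, 2.32 and 2.61 CPM with doxycycline. The groups overlapped, with a log2 fold change of 0.08 (SE 0.206) resting on 42 to 81 reads per library. SP7, which acts after RUNX2 (chr12:53326575-53344793), had 5, 2, 0 and 4 reads in the control libraries and 5, 4, 3 and 5 with doxycycline. No difference could be measured for SP7 at this depth, as the count of 0 in the control of clone 5 allows up to 0.0993 CPM of assigned reads (3 reads, counting error only).

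The matrix protein SPARC, or osteonectin (chr5:151661096-151686915), was the most abundant of the 10. It was at 727.2, 1717.1, 581 and 900.7 CPM in the control cultures and at 754.4, 1454.9, 484.7 and 848.4 CPM with doxycycline, a log2 fold change of -0.13 (SE 0.0646). The spread between origins was wider than the difference between the treatments in any pair. SPP1, or osteopontin (chr4:87975714-87983411), had 5, 35, 1 and 6 reads in the control libraries and 6, 40, 6 and 3 with doxycycline, so most of its reads came from clone 3 under both conditions.

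Expression per transcript length was compared by the deposited TPM, which allows levels of different genes to be set side by side. SPARC stood at 462.7 ± 217.0 TPM (mean ± SD over the 8 libraries), followed by SLC20A1 at 100.7 ± 11.6, PHOSPHO1 at 59.3 ± 16.4 and ALPL at 58.9 ± 18.4. The level of PHOSPHO1 was in percentile 90.9 of the genes with any TPM. SLC20A2 was at 16.6 ± 3.17 TPM, ENPP1 at 9.89 ± 2.84, ANKH at 9.3 ± 2.25 and RUNX2 at 1.45 ± 0.581. SPP1 was at 0.461 ± 0.545 and SP7 at 0.0653 ± 0.0349 TPM. The ranges of SPARC, SLC20A1 and PHOSPHO1 were apart from each other, and so were those of ALPL and SLC20A2 and of ANKH and RUNX2. PHOSPHO1 and ALPL overlapped, as did SLC20A2 and ENPP1, ENPP1 and ANKH, RUNX2 and SPP1, and SPP1 and SP7. Within libraries, the TPM of PHOSPHO1 exceeded that of ALPL in 3 of 8, the doxycycline cultures of clones 3, 5 and 6. CPM per kilobase of effective length gave the same order for all 10 genes.

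**Figure D3:**
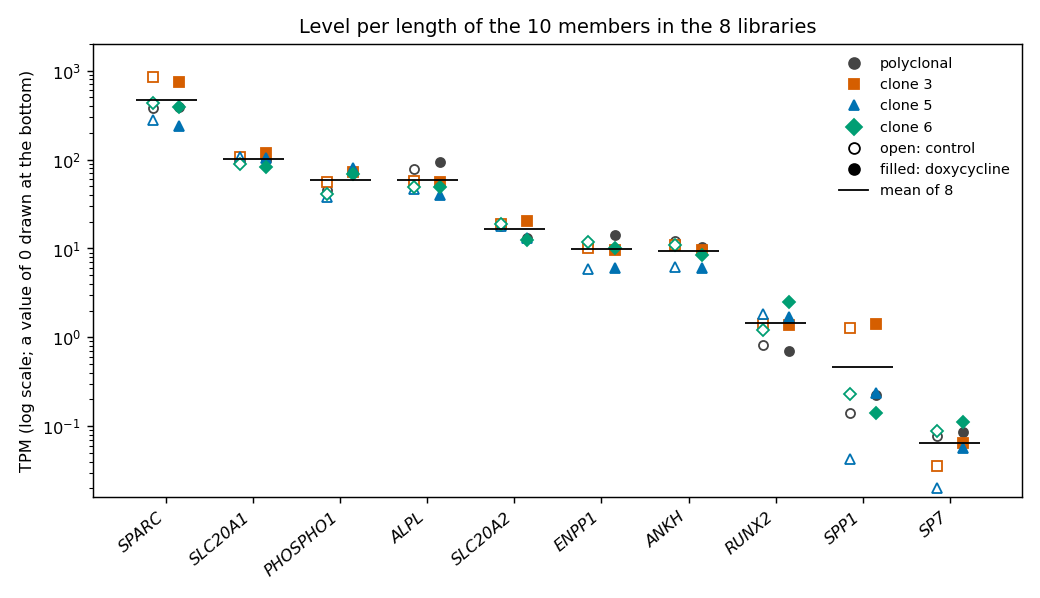
TPM (log scale) of the 10 members, from the highest to the lowest mean, with open symbols for control and filled symbols for doxycycline cultures, a shape and colour for each origin and a line at the mean of the 8 libraries. SPARC and SPP1 were highest in clone 3, and the mean levels went from 462.7 TPM (SPARC) to 0.0653 TPM (SP7).

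How the members differ among the 4 origins was not used to choose them and could be tested, with 2 cultures per origin and doxycycline in the model. Of the 8 members tested, 5 differed among origins (SPARC, ENPP1, ALPL, ANKH and SLC20A1), beside 39.4% of all genes tested. For SPARC, the means of the 2 cultures were 740.8 CPM in the polyclonal population, 1586.0 in clone 3, 532.9 in clone 5 and 874.6 in clone 6, a ratio of 2.98 between the highest and the lowest (edgeR, adjusted p = 0.000211). ENPP1 went from 27.3 CPM in clone 5 to 54.5 in the polyclonal population (edgeR, adjusted p = 0.00459). ALPL went from 63.8 CPM in clone 5 to 118.4 in the polyclonal population (edgeR, adjusted p = 0.00584), and ANKH from 10.3 CPM in clone 5 to 16.6 in the polyclonal population (edgeR, adjusted p = 0.0163). Clone 5 was therefore the lowest for these 3 genes of pyrophosphate handling and for SPARC. SLC20A1, at 174.2 CPM in clone 6 and 213.2 in clone 3, had the smallest spread of the 5 (edgeR, adjusted p = 0.0326).

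The means of PHOSPHO1 were 65.2 CPM in the polyclonal population, 75.5 in clone 3, 72.2 in clone 5 and 68.7 in clone 6, a ratio of 1.16, and its origins were not called different (edgeR, adjusted p = 0.506), nor were those of SLC20A2 (adjusted p = 0.142) or RUNX2 (adjusted p = 0.872). Without clone 5, ANKH and ENPP1 lost their call (edgeR, adjusted p = 0.477 and 0.167), and without the polyclonal cultures ALPL did (adjusted p = 0.09). With 1 origin left out, SLC20A1 was called only where that origin was clone 3, and a filter of at least 1 count in any library took its call as well (edgeR, adjusted p = 0.0546). SPARC was called with any 1 origin left out. With that low filter SPP1 could be fitted too, and it differed among origins (edgeR, adjusted p = 0.000783).

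Other genes of mineral formation were examined in 5 lists with 103 genes, of which 78 were tested. These lists were drawn up by function but with earlier results of these data known, so the share of their genes called describes them and is not independent evidence that they differ from other genes. With the origin block, 18 of the 78 (23.1%) were called, 5 higher and 13 lower, beside 7.63% of all genes, and the median log2 fold change was -0.115, against 0.004 for all genes tested. Without the block, edgeR called none of them (7 at an unadjusted p under 0.05) and DESeq2 called 2, ETNK2 (adjusted p = 0.0337) and FAM20C (adjusted p = 0.00585). With the block, leaving out the polyclonal cultures gave 13 calls, clone 3 gave 5, clone 5 gave 3 and clone 6 gave 1. All 18 moved in the same direction in 4 of 4 pairs, but a fit blocked on these pairs favours such genes, so this is no further support for the calls. The calls in the following lists are those of the blocked fit and carry that limit.

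Of the 16 genes that handle phosphate and pyrophosphate, 9 were tested, and 2 fell while the rest did not pass (list median log2 fold change -0.033). NT5E, the surface enzyme CD73 that frees phosphate from AMP, was at 27.3, 129.1, 9.69 and 24.2 CPM in the control cultures and at 19.4, 92.7, 7.7 and 16.6 with doxycycline, lower in each pair (log2 fold change -0.47, SE 0.0666, edgeR, adjusted p = 0.0116). Clone 3 was far above the other origins in both groups. NHERF1, a scaffold that binds phosphate transporters, fell from 63.8 ± 14.2 to 47.9 ± 18.6 CPM (SD, n = 4 each, log2 fold change -0.47, SE 0.11, edgeR, adjusted p = 0.0433). The pyrophosphatases PPA1 (cytosolic, log2 fold change -0.01, SE 0.0548) and PPA2 (mitochondrial, -0.00, SE 0.0634) were the most abundant genes of the list, with control means of 300.1 ± 21.2 CPM (PPA1) and 103.7 ± 21.9 CPM (PPA2, SD, n = 4 each).

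The list around the substrates of PHOSPHO1 holds 18 genes that make or use phosphocholine and phosphoethanolamine or mark matrix vesicles, of which 16 were tested. There, 2 rose and none fell (list median log2 fold change 0.061). ETNK2, an ethanolamine kinase that forms phosphoethanolamine, was at 8.2, 8.98, 5.77 and 10.6 CPM in the control cultures and at 15.1, 17.3, 10.9 and 18.0 with doxycycline. The groups did not overlap, and the log2 fold change was 0.88 (SE 0.0941, edgeR, adjusted p = 0.00635 with the block and 0.33 without). PCYT1A, which consumes phosphocholine in the synthesis of phosphatidylcholine, rose from 95.3 ± 9.55 to 119.3 ± 13.3 CPM (SD, n = 4 each, log2 fold change 0.32, SE 0.0557, edgeR, adjusted p = 0.0196). The annexins ANXA2 (log2 fold change 0.17, SE 0.062) and ANXA5 (0.14, SE 0.0541), calcium-binding proteins of the vesicle membrane, were the most abundant of the list and were higher in 4 of 4 pairs without being called (edgeR, adjusted p = 0.147 and 0.156), and 76.3% of the ANXA2 reads implied by the authors' mean were matched. SMPD3, a sphingomyelinase that yields phosphocholine, had 0 reads matched to its symbol in all 8 libraries. Of the reads implied by the authors' mean for SMPD3, 0% were matched, so its expression could not be judged here.

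Of 26 matrix genes, 17 were tested and 4 fell, while none rose (list median log2 fold change -0.104). FKBP10, a chaperone of procollagen, was at 3.09, 49.2, 3.01 and 1.37 CPM in the control cultures and at 2.64, 27.6, 1.1 and 0.715 with doxycycline, so its level was mainly that of clone 3 (log2 fold change -0.81, SE 0.189, edgeR, adjusted p = 0.0433). BGN, the proteoglycan biglycan, was at 330.0, 722.8, 313.6 and 359.1 CPM in the control cultures and at 267.8, 442.0, 131.4 and 225.3 with doxycycline (log2 fold change -0.73, SE 0.132, edgeR, adjusted p = 0.0217). FAM20C, the kinase that phosphorylates secreted proteins of bone and teeth, fell from 25.8 ± 1.21 to 15.9 ± 3.47 CPM without overlap of the groups (SD, n = 4 each, log2 fold change -0.72, SE 0.124, edgeR, adjusted p = 0.0192), and only 38.4% of its reads were matched. BMP1, the protease that trims procollagen, fell from 42.5 ± 12.8 to 32.2 ± 10.4 CPM (SD, n = 4 each, log2 fold change -0.41, SE 0.0721, edgeR, adjusted p = 0.0203). The collagens COL1A2 (log2 fold change 0.06, SE 0.059) and COL1A1 (0.24, SE 0.141) were the most abundant and were not called. Between origins, 15 of the 17 were called (88.2%, beside 39.4% of all genes tested), with COL1A2 at 1606.3 CPM in the control of clone 3 and 68.1 CPM in that of clone 5.

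Among 20 transcription factors of osteogenesis, 17 were tested, 3 rose and 4 fell (list median log2 fold change -0.194). MSX1, a homeobox factor of craniofacial bone, rose from 18.8 ± 5.07 to 26.7 ± 2.06 CPM (SD, n = 4 each, log2 fold change 0.53, SE 0.113, edgeR, adjusted p = 0.0339). RUNX3, a relative of RUNX2 (0.33, SE 0.0814, edgeR, adjusted p = 0.0499), and TWIST1, known as an inhibitor of RUNX2 (0.32, SE 0.0704, edgeR, adjusted p = 0.0372), rose as well. CBFB, the partner subunit of the RUNX proteins, fell from 93.8 ± 28 to 73.7 ± 22.2 CPM (SD, n = 4 each, log2 fold change -0.35, SE 0.0547, edgeR, adjusted p = 0.0158). WWTR1, the cofactor TAZ, and the homeobox gene DLX5 also fell (log2 fold change -0.32 and -0.30, edgeR, adjusted p = 0.016 and 0.0262), and they are named after their values were seen. The most abundant of the list were ATF4 (0.02, SE 0.079) and YAP1 (-0.24, SE 0.0614, 79.3% of reads matched), which were not called.

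Of 23 ligands, receptors and effectors of osteogenic signals, 19 were tested, 3 fell and none rose (list median log2 fold change -0.248). The number called moved with the settings. With at least 10 counts in every library 8 were called, 1 higher and 7 lower. With at least 1 count in any library 6 were called, and by DESeq2 with the block 7, all lower. Without clone 3, clone 5 or clone 6 none was called. GLI1, an effector and target of hedgehog signals, was at 18.2, 13.1, 19.8 and 13.7 CPM in the control cultures and at 15.9, 6.57, 9.86 and 7.36 with doxycycline (log2 fold change -0.77, SE 0.151, edgeR, adjusted p = 0.0268). The ligand BMP7 fell from 119.5 ± 17.7 to 91.4 ± 23.3 CPM (SD, n = 4 each, log2 fold change -0.41, SE 0.0789, edgeR, adjusted p = 0.0255). The receptor TGFBR2 (log2 fold change -0.28, SE 0.0633, edgeR, adjusted p = 0.0402) had 58.2% of its reads matched. The Wnt coreceptors LRP6 (-0.32, SE 0.0834, 69.8% of reads matched) and LRP5 (-0.38, SE 0.104), the most abundant of the list, were not called (edgeR, adjusted p = 0.0585 and 0.0689).

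**Figure D4:**
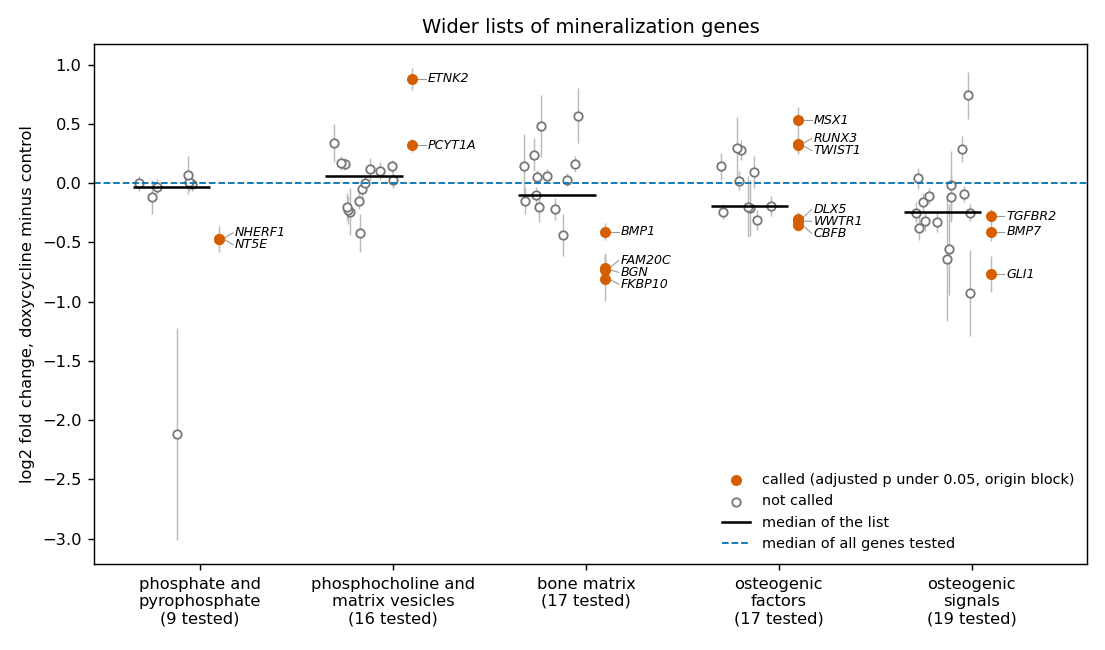
Log2 fold change between doxycycline and control (points, bars ± SE) of the tested genes of 5 lists, with the genes called in the blocked fit in orange, the median of each list as a black line and the median of all genes tested (0.004) as a dashed line. In the list of factors 1 gene is not drawn. The called genes were lower in the phosphate, matrix and signal lists, higher in the phosphocholine list and in both directions among the factors. The lowest point is ENTPD1 (-2.12, SE 0.894), not called, of which 13.9% of the reads were matched.

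Within 250 kb of PHOSPHO1 the annotation has 20 other genes, of which 7 passed the filter. Of these 7, 1 was called in edgeR's fit with the block, beside 7.63% of all genes tested, and nothing is read from that count. ABI3, an adaptor of actin regulation whose gene ends 141 bases from that of PHOSPHO1, was at 3.95, 4.41, 1.27 and 7.32 CPM in the control cultures and at 5.65, 3.87, 2.09 and 7.36 with doxycycline (log2 fold change 0.24, SE 0.192, edgeR, adjusted p = 0.495). It differed among origins (edgeR, adjusted p = 0.0062), with the lowest level in clone 5. IGF2BP1, an RNA-binding protein 167221 bases away, was the 1 neighbour called, from 530.6 ± 70.1 to 665.7 ± 114.1 CPM (SD, n = 4 each, log2 fold change 0.32, SE 0.0575, edgeR, adjusted p = 0.0217), higher in 4 of 4 pairs. It was not called without the block (edgeR, adjusted p = 0.692) or with any origin left out. GNGT2 (0.21, SE 0.212), ZNF652 (0.22, SE 0.087), PHB1 (0.12, SE 0.0677), B4GALNT2 (0.03, SE 0.191) and ZNF652-AS1 (-0.27, SE 0.376) were not called. The libraries were made with a stranded kit, but whether Salmon used the strand is not given in the sources used here, so reads of ZNF652 and its antisense gene may have been shared.

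**Figure D5:**
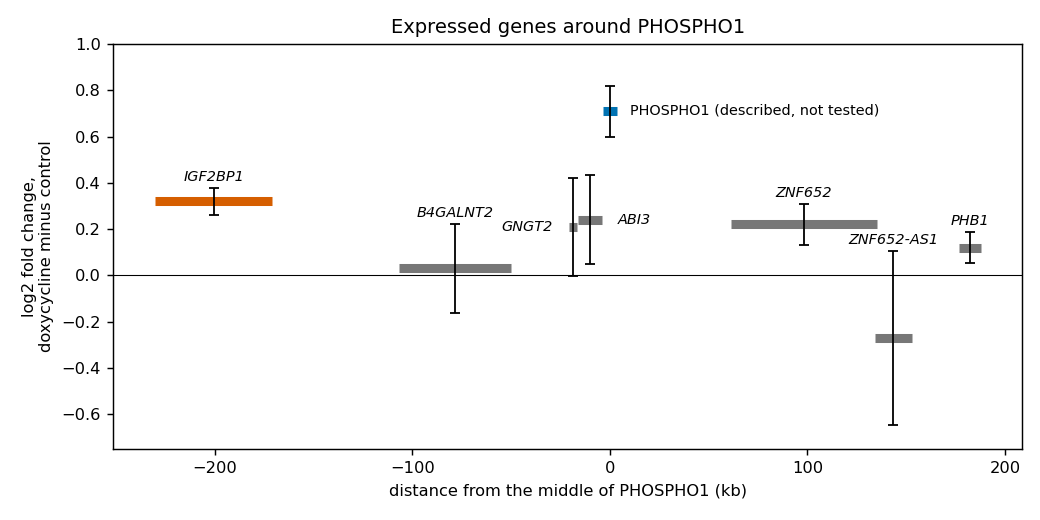
Log2 fold change between doxycycline and control (vertical axis, bars ± SE) of PHOSPHO1 (blue) and the 7 tested genes around it, each drawn over its extent in kb from the middle of PHOSPHO1, with the called gene in orange. PHOSPHO1 was at 0.71 and its nearest neighbour, ABI3, at 0.24.

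The genes whose log2 CPM followed that of PHOSPHO1 most closely over the 8 libraries were sought among 13381 genes with a mean of at least 1 CPM. They were B4GALT3, a galactosyltransferase (Pearson r = 0.976), EZR, which links membrane and actin (0.975), LOC105371311 (0.966), MAP7D2, a microtubule-binding protein (0.962), and SMIM31 (0.957). The libraries share the division into control and doxycycline cultures, so r was also taken after removing the mean of each group, and was 0.924, 0.874, 0.778, 0.779 and 0.921 in that order. These values describe 8 libraries and were selected as the highest of all genes. SMIM31 had only 17 to 43 reads per library and LOC105371311 had 11 to 36 in the controls, so their r includes sizeable counting error. MAP7D2 had a mean of 1.41 ± 0.966 CPM in the controls and of 7.31 ± 1.96 CPM with doxycycline, and LOC105371311 at 0.659 ± 0.335 and 3.8 ± 1.06 CPM (SD, n = 4 each), so their fold differences were larger than that of PHOSPHO1, while EZR, at 264.7 ± 14.4 and 310.0 ± 12.5 CPM, had a smaller one. For MAP7D2, 45.7% of the reads implied by the authors' mean were matched.

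The labelled cell line was checked with markers of cell types. All 8 Ewing sarcoma markers were expressed, with a summed level of 4056.1 to 5833.9 CPM per library and CCND1 as the most abundant (2375.1 CPM). Of these, NR0B1 (from 63.1 ± 8 to 99.8 ± 3.82 CPM, SD, n = 4 each, log2 fold change 0.67, edgeR, adjusted p = 0.00745) and NKX2-2 (0.30, edgeR, adjusted p = 0.0414) rose with doxycycline and LIPI fell (-0.30, edgeR, adjusted p = 0.0203) in the blocked fit. Without the block edgeR called none of these 3 (adjusted p = 0.125, 0.825 and 0.876), and DESeq2 called NR0B1 (adjusted p = 3.64e-05). PRKCB (0.18), BCL11B (0.09), STEAP1 (0.16), CCND1 (-0.06) and CD99 (0.03) were not called by edgeR. The 3 of 8 markers called in the blocked fit stand beside 7.63% of all genes tested. Osteoblast markers were found in part: RUNX2, ALPL and COL1A1 passed the filter, SP7, SPP1 and BGLAP did not, and IBSP had 0 reads in every library. Their summed level was 244.6 to 1462.2 CPM, highest in the cultures of clone 3, where COL1A1 was at 1375.7 and 1247.4 CPM. The osteocyte markers SOST, DMP1, PHEX and MEPE were all under 1 CPM in every library. Of the chondrocyte markers, SOX9 was at a mean of 42.9 CPM, COL2A1 and MATN3 passed the filter at low levels, and ACAN, COL10A1 and COMP did not pass. Only 7.55% of the COL10A1 reads and 44% of the ACAN reads implied by the authors' mean were matched, so their levels could not be judged. The osteoclast list had CTSK at 117.8 CPM and ACP5 and TNFRSF11A at low levels, with OSCAR not passing. Of the 6 genes of these 3 lists that were tested, edgeR's blocked fit called none, beside 7.63% of all genes tested. At an unadjusted p under 0.05 there were 3, beside 3970 of all 15993 genes. DESeq2 with the block, which called 12% of all genes, called SOX9 as lower (adjusted p = 0.0169, and 0.0653 by edgeR). Clone 3 and clone 5 thus stood at opposite ends for collagen and SPARC, and the part of that difference in the other values was not tested.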

How the data were processed

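RNA-seq libraries of 8 cultures were used, 4 control and 4 doxycycline, with depth from 26719886 to 42422421 assigned reads. The authors ran Salmon against GRCh38 RefSeq transcripts and deposited, per library, estimated counts, TPM and effective length for each of 158867 transcripts. They also deposited a DESeq2 table in which the mean of normalized counts, a signal averaged over samples, was used here to see how much of each gene was matched; its other columns hold the authors' own comparison and were not used. The mRNA libraries were prepared with a stranded kit, and Salmon's strand setting is not given in the sources used here.

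Transcripts were matched to symbols through RefSeq (115325, 72.6%, keeping 89.9% to 91.1% of the reads), after which the estimated counts of the transcripts of a gene were added up (34792 genes) and rounded to whole numbers. The main test was edgeR 4.0.16 (filterByExpr, TMM, quasi-likelihood test, origin as a replicate block) in R 4.3.3 on 15993 genes, with Benjamini-Hochberg adjustment at 0.05. The SE of a log2 fold change is its size divided by the square root of F. Differences among origins were tested as the F test of the 3 origin terms. The pairing by origin comes from the labels. The deviations of log2 CPM (prior count 2) from the group means correlated by 0.406 (polyclonal), 0.546, 0.590 and 0.582 (clones 3, 5 and 6) within an origin and by -0.395 to 0.179 between origins. Alternatives were no block, DESeq2 1.42.0 with and without the block, its size factors, filters of at least 1 count in any or 10 counts in every library, an effective length offset and leaving out each origin.

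Members and lists were chosen with earlier results of these data known. Besides FEZF1, the members, the neighbours within 250 kb, the 5 genes most like PHOSPHO1 and the marker genes, the text names up to 5 called genes of each list by size of change and its 2 most abundant genes. In the list of factors 1 gene is counted but not reported here by name. Levels of genes were compared by TPM as the authors deposited it. Intervals and floors for low counts cover counting error only. Python 3.11.15, pandas 2.3.3, numpy 2.4.6 and scipy 1.17.1 were used.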

Additional observations from a re-analysis of the deposited data

Results flagged for a closer look

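Among 127 groups of 4 libraries (a named gene in the control or the doxycycline cultures), 16 held a library far from the other 3 by Dixon's test, where chance gives 6.35, about 1 in 20. The control and doxycycline groups of a gene hold the same 4 origins, so the groups are not independent. NT5E, FKBP10 and LIPI were each flagged in both groups. Among all genes tested, 39.4% differed among origins, so the 16 are not set against a strict chance level. The cause of these values was not tested.

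In 9 of the 16 the library that stood apart was a culture of clone 3, and each time it was the highest. NT5E was at 129.1 CPM in the control of clone 3 (9.69 to 27.3 in the other 3) and at 92.7 CPM in its doxycycline culture (7.7 to 19.4). FKBP10 was at 49.2 CPM in the control (1.37 to 3.09) and at 27.6 CPM with doxycycline (0.715 to 2.64). BGN was at 722.8 CPM (313.6 to 359.1), PCYT1A at 109.6 CPM (89.9 to 91.6) and B4GALT3 at 61.6 CPM (50.6 to 51.3) in the control of clone 3. SLC20A2 was at 42.9 CPM (26.8 to 28.8) and SPP1 at 1.16 CPM (0.126 to 0.199) when clone 3 received doxycycline.

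In clone 6, LIPI was at 301.6 CPM in the control (192.1 to 203.2) and at 250.5 CPM with doxycycline (155.8 to 166.4), PPA2 at 136.5 CPM in the control (91.9 to 93.7) and TWIST1 was the lowest control at 36.9 CPM (44 to 44.6). CBFB was at 106.8 CPM in clone 5 with doxycycline (60.2 to 66.2). In the polyclonal cultures, LRP6 was at 148.0 CPM with doxycycline (116.7 to 121.9) and COL10A1 at 0.43 CPM in the control, with 0 reads in the other 3. Only 7.55% of the COL10A1 reads implied by the authors' mean were matched, so these counts cover a small part of the gene's reads.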

How the results depend on the processing

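The log2 fold change of PHOSPHO1 stayed between 0.58 and 0.84 over 12 settings, and those of ANKH (-0.31 to -0.22), SLC20A2 (-0.48 to -0.28) and SPARC (-0.20 to -0.10) stayed negative. The values of ALPL, ENPP1, SLC20A1 and RUNX2, near 0, had either sign.

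The replicate block mattered most. With it edgeR called 1221 of 15993 genes between doxycycline and control (596 higher, 625 lower), with no replicate block 1 (1155 at an unadjusted p under 0.05). DESeq2 called 1920 with the block and 232 with no block. The genes of the wider lists went from 18 calls to 0 with no block and 2 by DESeq2 with no block, and the neighbours of PHOSPHO1 from 1 call to 0 in both (1 of 7 at an unadjusted p under 0.05 in each). For FEZF1 the log2 fold change with no block was -0.80 (edgeR, adjusted p = 0.29), and its adjusted p over the other settings was 1.08e-18 to 0.033. Leaving out 1 origin, with the block, gave 175 (without clone 5) to 699 (without the polyclonal cultures) genes called, 1 (without clone 6) to 13 calls in the wider lists, 0 to 0 among the neighbours, -0.86 to -0.74 for FEZF1, and 2970 (without clone 6) to 5300 genes called among origins in place of 6300. These fits have fewer cultures. Filters, size factors and the length offset kept the counts of all genes within 1.5 times.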
